A study of Rattus norvegicus with 4 samples.

Results

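Ldha, Aldoa and Fbp1 are 3 genes of glucose breakdown and glucose synthesis that were followed here in rat liver under the fibrate drug ciprofibrate. They were selected by gene symbol in the array's probe annotation, counting a spot under any symbol it lists, and each was matched to 2 of the 7688 spots, 6 spots in all. Both spots of a gene carried the same clone, and no member spot was listed under several symbols. The 3 genes were chosen with their mean ratios on these arrays already known, so their ratios are given as a description, with no test.

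The treated animals were 4 female Fischer rats that received ciprofibrate at 50 mg per kg of body weight per day for 60 days. Total RNA of each treated liver was hybridised on a 2-colour cDNA array, on which 2 labelled RNA samples compete for the same spotted clones, against a pool of total RNA from 5 control rats. The labels state that an array holds 1 of the 4 rats but do not number them, so each array (replicates 1 to 4) was taken as a separate rat; if an animal were shared, the spread would be technical. The pool is the only control sample, so differences among the controls cannot be seen, and whatever is odd about the pool affects all arrays.

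In glycolysis a hexose is split and oxidised to pyruvate, and lactate dehydrogenase passes pyruvate on to lactate and back. Gluconeogenesis, which in the body runs mainly in liver and kidney, reverses the path by separate enzymes at the irreversible steps. Aldoa encodes aldolase A, the form of the hexose-splitting enzyme best known from muscle and red blood cells. Ldha encodes the A subunit of lactate dehydrogenase, the main subunit in liver and skeletal muscle. Fbp1 encodes fructose-1,6-bisphosphatase of liver and kidney, which removes a phosphate from fructose 1,6-bisphosphate and so commits carbon to glucose synthesis. Ciprofibrate activates the nuclear receptor PPARα, which in rodent liver turns on fatty acid oxidation and peroxisome proliferation.

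The promoters of the 3 genes are shown because all 6 spots had ratios on one side of 0, so that a reader can see whether motifs of the receptor or of known regulators of glycolysis are written there. The sequences are from RefSeq on build GRCr8, each the 250 bases before an annotated start, read 5′ to 3′ on the gene's strand. Capitals mark the hypoxia-response core (ACGTG or GCGTG), the E-box (CACGTG, which contains the core on both strands) and the hexamer of PPAR response elements (AGGTCA), each searched on both strands. The Ldha window is chr1:106507842-106508091 on the plus strand, the Aldoa window chr1:190836778-190837027 on the minus strand and the Fbp1 window chr17:2213457-2213706 on the plus strand.
Ldha: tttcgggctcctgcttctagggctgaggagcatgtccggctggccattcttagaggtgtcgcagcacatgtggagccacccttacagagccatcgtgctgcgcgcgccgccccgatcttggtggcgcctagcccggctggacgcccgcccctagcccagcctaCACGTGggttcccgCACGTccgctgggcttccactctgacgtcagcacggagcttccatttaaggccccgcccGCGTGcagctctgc
Aldoa: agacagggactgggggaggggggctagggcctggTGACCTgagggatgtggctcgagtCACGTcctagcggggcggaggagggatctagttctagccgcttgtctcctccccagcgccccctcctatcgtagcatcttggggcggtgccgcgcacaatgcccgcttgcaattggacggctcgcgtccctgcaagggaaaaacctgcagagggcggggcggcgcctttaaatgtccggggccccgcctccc
Fbp1: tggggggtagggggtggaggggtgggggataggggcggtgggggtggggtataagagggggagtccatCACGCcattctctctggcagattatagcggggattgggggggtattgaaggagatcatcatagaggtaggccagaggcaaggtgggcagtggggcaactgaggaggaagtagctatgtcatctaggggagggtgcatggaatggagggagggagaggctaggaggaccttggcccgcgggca
The Ldha window held 4 matches to the hypoxia-response core, 2 of them overlapping in its 1 E-box. Aldoa has 3 annotated starts. The window of the start farthest downstream, printed here, held 1 core match and 1 PPAR hexamer, and the other 2 windows held none of the motifs. Fbp1 held 1 core match. None of the windows held the full PPAR direct repeat, 2 hexamers 1 base apart. Among 33469 annotated promoter windows of this length, 36.7% held the core, 5.59% the E-box, 14.1% the hexamer and 0.0508% the direct repeat, so a core match is common. A match is a description of letters, not a bound site.

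The direction of the deposited ratio is not stated, since the labels put treated liver in channel 1 and control liver in channel 2 but give no dyes. The labels name no array with the channels exchanged. A difference between the channels at a clone would repeat on every array and cannot be told apart from treatment. Of 19 measured textbook target genes of peroxisome proliferators, 14 had a positive and 5 a negative mean, so a positive log2 ratio is read as likely higher in the treated livers. The called panel genes were Acaa2 (0.71), Ech1 (0.67), Crot (0.67), Me1 (0.43), Acsl1 (0.41) and Eci1 (0.39) as positive and Acot2 (-0.39) as negative. Clones listed under several symbols were at 0.89 for Acot3 and Acot1, 0.89 for Cyp4a3 and Cyp4a2 and 0.31 for the repeated symbol Cyp4a1. With the surface described below subtracted, 12 of the 19 were positive and 7 negative, against 46.5% of all rows tested with a positive mean. The calls of Crot, Acsl1, Eci1 and Acot2 then ended, while Acaa2, Ech1 and Me1 stayed called and Cpt1a was called lower (-0.35). Since they were used to read the sign, these genes are no evidence of a treatment effect. Every value below is a log2 ratio after the median of each array was subtracted, a shift between -0.08 and 0.03.

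The place of a spot on the slide went with its ratio, and this touches every value below. The layout was inferred from the values as 8 blocks of 31 by 31 spots in 2 columns. On each array the rank autocorrelation along the spot order was higher at a lag of 31 (between 0.090 and 0.508) than at 30 or 32. Left blocks had a higher median ratio than right ones, by 0.20, 0.12, 0.36 and 0.53 on replicates 1 to 4. The 4 spots of Ldha and Aldoa lay in the top left block, whose median was 0.19, -0.02, 0.43 and 0.35, against -0.02, -0.01, 0.10 and -0.12 in the top right block, so that on replicate 2 the top left block was not the higher one. Both spots of Fbp1 lay in a right block, the third from the top, whose median averaged -0.16. Each member is therefore given with its neighbours on the slide, and again after a smooth surface over the spot positions was subtracted from each array.

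**Figure D1:**
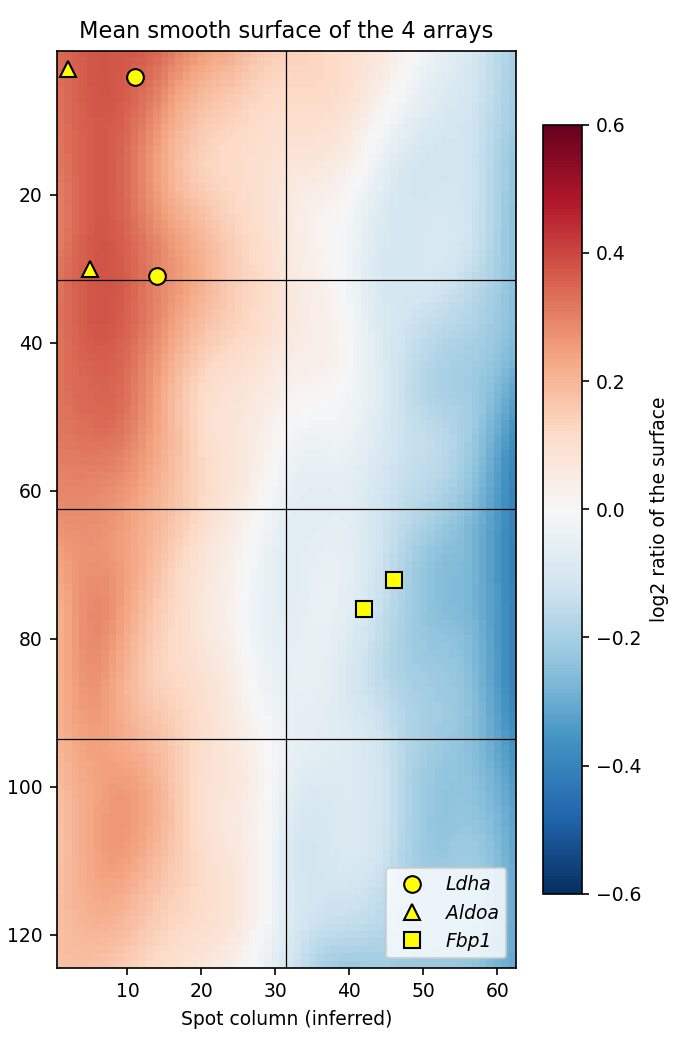
The smooth surface fitted over the inferred spot positions, as the mean of the 4 arrays (colour, log2 ratio), with the spots of Ldha, Aldoa and Fbp1 marked. The axes count spot columns and rows, and lines bound the 8 blocks. The spots of Ldha and Aldoa sit where the surface is positive and those of Fbp1 where it is negative.

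Ldha had the highest mean ratio of the 3. Its log2 ratios were 0.62, 0.74, 0.84 and 0.72 on replicates 1 to 4. All lay above 0 within a narrow range, with a mean of 0.73 ± 0.09 (SD, n = 4), a 1.66-fold ratio. This placed Ldha 5th from the top among 2644 genes with 1 symbol, and above 98.4% to 99.2% of all rows on each array. The first spot read 0.64, 0.69, 0.93 and 0.73 and the second 0.61, 0.79, 0.74 and 0.72, so neither spot carried the mean alone. The median of the measured spots within 3 rows and columns of the first was 0.28, 0.21, 0.64 and 0.49 on the 4 arrays. For the second spot the neighbours were at 0.33, 0.41, 0.52 and 0.47. Both Ldha spots exceeded their neighbours on every array, but the neighbours themselves were positive on every array. With the surface subtracted, Ldha was at 0.35, 0.60, 0.31 and 0.27, a mean of 0.38 ± 0.15 (SD, n = 4). Much of the log2 ratio thus went with position, and replicate 2, where the surface was lowest at both spots, had the highest remaining value.

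Aldoa, which splits fructose 1,6-bisphosphate, stood close to Ldha. It was at 0.59, 0.59, 0.84 and 0.76 on replicates 1 to 4, again with no array near 0. The mean was 0.70 ± 0.12 (SD, n = 4), a 1.62-fold ratio, the 8th highest of the 2644 genes. Its spots agreed less well than those of Ldha: the first read 0.50, 0.53, 0.94 and 0.76, and the second 0.68, 0.65, 0.74 and 0.76. The neighbours of the first spot were at 0.27, -0.39, 0.58 and 0.60, and those of the second at 0.36, -0.03, 0.59 and 0.60. On replicate 2 Aldoa was positive among neighbours with a negative median, while on replicates 3 and 4 the neighbours reached most of its ratio. After the surface was subtracted it was at 0.31, 0.55, 0.24 and 0.17, a mean of 0.32 ± 0.16 (SD, n = 4), and the order of the arrays changed, with replicate 2 highest and replicate 4 lowest.

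Fbp1 was lower than both and more variable between arrays. Its log2 ratios were 0.22, 0.56, 0.17 and 0.35 on replicates 1 to 4, a mean of 0.33 ± 0.17 (SD, n = 4), or 1.26-fold. Replicate 2 stood highest. At 410th of the 2644 genes it was not extreme over the whole slide. Its first spot read 0.25, 0.58, 0.16 and 0.27 and its second 0.20, 0.54, 0.19 and 0.43. The neighbours of the first spot were at 0.02, -0.18, -0.16 and -0.16 and those of the second at 0.01, -0.12, -0.15 and -0.11. Fbp1 thus stood out from spots around it that were near or below 0. With the surface subtracted its ratios were 0.28, 0.65, 0.34 and 0.49, a mean of 0.44 ± 0.16 (SD, n = 4), and it moved to 7th of the 2644 genes, against 29th for Ldha and 93rd for Aldoa in the same values.

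**Figure D2:**
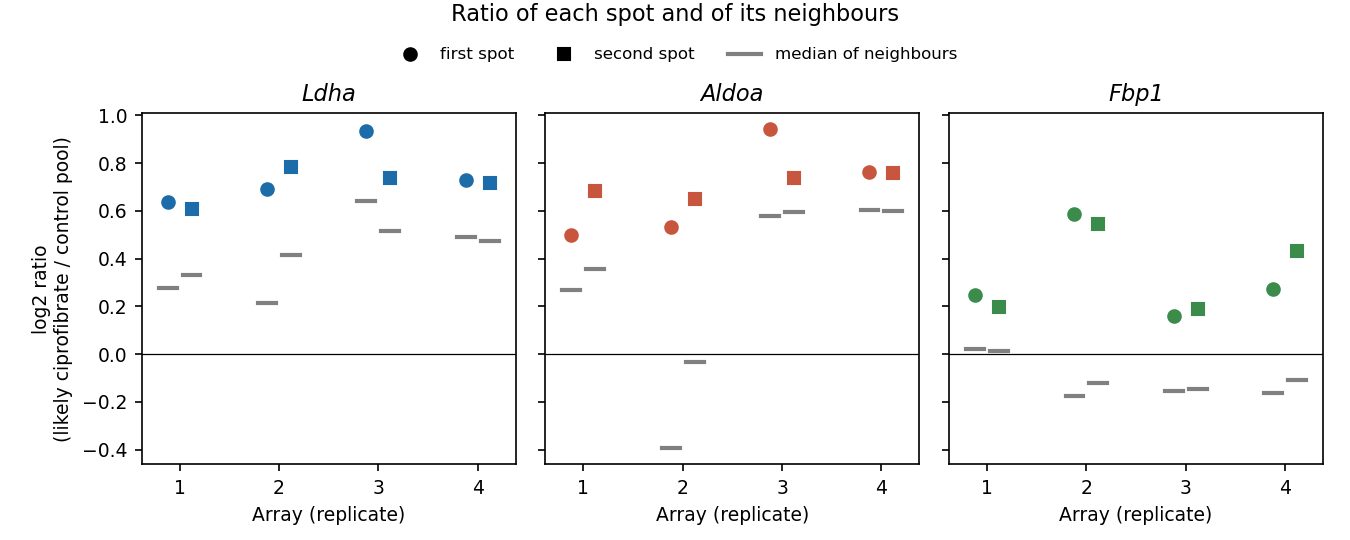
Log2 ratio (vertical axis) of both spots of Ldha, Aldoa and Fbp1 on each array (horizontal axis), with the median of the neighbouring spots as a grey bar. All 24 values lie above 0 and above their neighbours, which are positive around Ldha and mostly negative around Fbp1.

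Taken over spots and arrays, 24 of 24 member values lay above 0 and 24 of 24 above the median of their neighbours; the spots of a gene share a clone and an RNA sample and are not independent. The background is wide: over the 4641 rows tested, 13.6% were called higher and 15.3% lower (limma, Benjamini-Hochberg adjusted p under 0.05), and the median of all row means was -0.01. In surface-subtracted values 2.89% were called higher and 11.5% lower. Within their own blocks the 3 genes took similar places. Ldha was 4th and Aldoa 7th of the 556 tested rows whose spots all lay in the top left block, where the median row was at 0.20. Fbp1 was 5th of 571 rows in its block, where the median row was at -0.21.

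The order among the members depended on position. Ldha exceeded Aldoa by 0.03 ± 0.08 (SD of the difference, n = 4), positive on 2 of 4 arrays, so these neighbours in the order were not separated beyond their spread. Ldha minus Fbp1 was 0.40 ± 0.20 and Aldoa minus Fbp1 0.37 ± 0.26, both positive on all 4 arrays. In surface-subtracted values Ldha minus Fbp1 was -0.06 ± 0.11 and Aldoa minus Fbp1 -0.12 ± 0.14, each positive on 1 of 4 arrays. Ldha minus Aldoa was then 0.07 ± 0.03, positive on all 4.

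**Figure D3:**
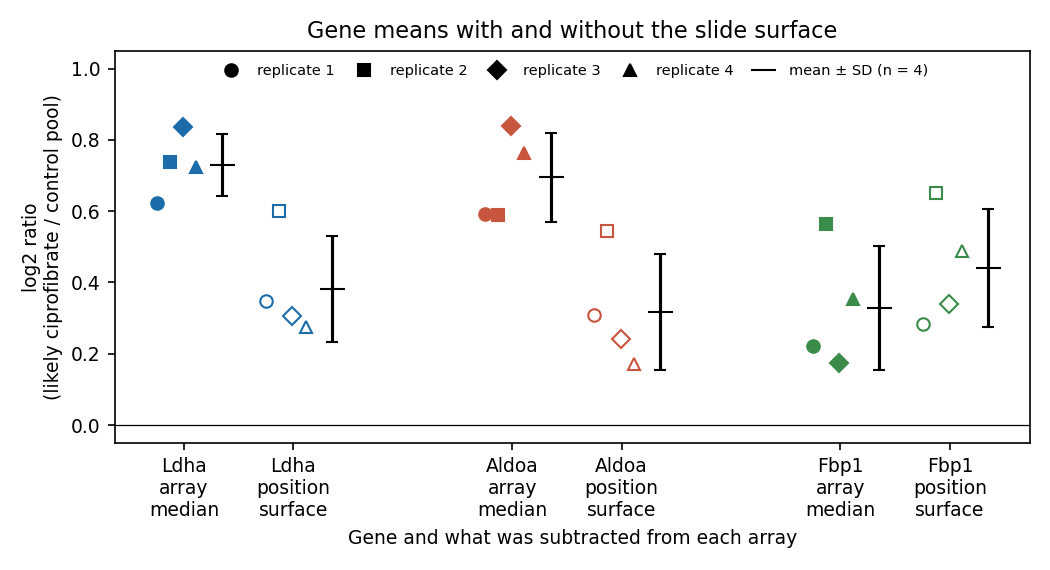
Log2 ratios of the 3 genes on each array (points, 4 symbols for the 4 replicates) with the mean ± SD beside them, after the array median (filled) or the position surface (open) was subtracted. The gap between Ldha or Aldoa and Fbp1 closes when the surface is subtracted, and replicate 2 is then the highest array for each gene.

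The printed pairs of spots gave the error between spots of the same array. Among 1591 clones printed exactly 2 times with all values measured, the median clone had a mean absolute difference of 0.10 between its spots. The figure was 0.08 for Ldha, 0.13 for Aldoa and 0.07 for Fbp1, larger than that of 41.2%, 64.6% and 31.8% of the clones. The spots of Ldha and of Aldoa were printed 840 positions apart, a spacing shared by 170 of these clones, and those of Fbp1 120 apart, the spacing of 1142. Spots of a member share a block, so these differences leave out any effect of position that the block shares and the spread between rats. Both spots also share the clone, the labelled RNA and the hybridisation, so errors from these are left out too.

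Over the 4 arrays, the named genes closest to Ldha and Aldoa in the array-centred values shared their block, and those closest to Fbp1 did not share its block. By the root mean square difference from Ldha, these were Sod3 (0.04), an extracellular superoxide dismutase, Cma1 (0.05), a mast cell chymase, Ptprj (0.08), a receptor phosphatase, Aldoa (0.08) and Ldhb (0.09). For Aldoa they were Cma1 (0.05), Ldhb (0.06), Ldha (0.08), Hnrnpl (0.08), a splicing factor, and Ifrd1 (0.08). All of these lay in block 1 with both members. The 5 closest to Fbp1 were Psmc4 (0.03), Rhd (0.04), Srf (0.04), Psat1 (0.05) and Efcab11 (0.05), from blocks 4, 5, 7 and 8. After subtraction of the surface the list for Ldha was Ly6c, Churc1, Fabp3, Rps15 and Cma1, of which Churc1 and Cma1 lay in its block and Cma1 was also among its 5 closest before. For Aldoa it was Arsb, Rps15, Umod, Noct and Cox6c, all from other blocks. For Fbp1 it was Cfi, Cnn1, Trappc11, Ifitm3 and Hipk2, of which Cfi and Hipk2 lay in its block. Neither of these 2 lists shared a gene with the earlier list of the same member.

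Around the members, 7 other glycolytic genes were measured on all 4 arrays, of which 2 were called higher, 1 lower and 4 not called, against 13.6% and 15.3% of all rows. Ldhb, the other main subunit of lactate dehydrogenase, was at 0.50, 0.62, 0.83 and 0.69 (mean 0.66 ± 0.14, SD, n = 4, limma adjusted p = 0.00625). It lay in block 1 with Ldha, which exceeded it by 0.07 ± 0.06. Aldoc, the aldolase best known from brain, was at 0.23, 0.52, 0.43 and 0.55 (0.43 ± 0.14, limma adjusted p = 0.0201). Aldoa exceeded it by 0.26 ± 0.15. Both calls ended with the surface subtracted, with Ldhb at 0.30 ± 0.21 (limma adjusted p = 0.0802) and Aldoc at 0.15 ± 0.12 (limma adjusted p = 0.193). The call of Aldoc also ended with block medians subtracted (0.22, limma adjusted p = 0.101) and without replicate 3 (0.43, limma adjusted p = 0.0927) or replicate 4 (0.40, limma adjusted p = 0.0879).

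Eno2, the enolase best known from neurons, was the glycolytic gene called lower, at -0.27, -1.002, -0.45 and -0.40 (-0.53 ± 0.32, SD, n = 4, limma adjusted p = 0.0260). Its call held with the surface subtracted, at -0.77 ± 0.32 (limma adjusted p = 0.0168), and ended without replicate 1 (-0.62), 3 (-0.56) or 4 (-0.57). Eno1, the enolase of most tissues, was at 0.28 ± 0.15 and at -0.07 ± 0.10 with the surface subtracted, with no call in either; it was called higher with array weights (limma adjusted p = 0.0182) and with the repeated value kept (limma adjusted p = 0.0339). The subunits of phosphofructokinase, the enzyme that Fbp1 opposes, were not called: the platelet form Pfkp was at 0.29 ± 0.21, the liver form Pfkl at 0.13 ± 0.14 and the muscle form Pfkm at -0.30 ± 0.42. With block medians subtracted Pfkl was called at 0.31 (limma adjusted p = 0.0361), and with the repeated value kept Pfkp was called at 0.39 (limma adjusted p = 0.0453).

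None of the 5 other measured genes of gluconeogenesis was called in the planned fit, against 13.6% of all rows called higher and 15.3% lower. Fbp2, the muscle form of the bisphosphatase, was at 0.00, -0.16, -0.17 and -0.24 (-0.14 ± 0.10, SD, n = 4), and Fbp1 exceeded it on 4 of 4 arrays, by 0.47 ± 0.23 and, with the surface subtracted, by 0.44 ± 0.24. G6pc1, the glucose-6-phosphatase that releases glucose from liver, was at -0.13, -0.10, -0.28 and -0.29 (-0.20 ± 0.10), on the other side of 0 from Fbp1 on every array, and was called lower with array weights (limma adjusted p = 0.0295). It lay in a right block whose median averaged -0.16, and was at -0.12 ± 0.08 with the surface subtracted (limma adjusted p = 0.246). With block medians subtracted it was at -0.02 (limma adjusted p = 0.838). The related G6pc3 was at 0.02 ± 0.15. The malate dehydrogenases Mdh1, of the cytosol, and Mdh2, of mitochondria, were at -0.15 ± 0.16 and 0.10 ± 0.49, and without replicate 2, where it was at -0.62, Mdh2 was called at 0.33 (limma adjusted p = 0.0370). Pgam2, Pc, Slc37a4 and Got1 had spots but a value on at most 1 array and were not tested. The other members of both lists, Gapdh, Pck1 and Pklr among them, were not analysed here.

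**Figure D4:**
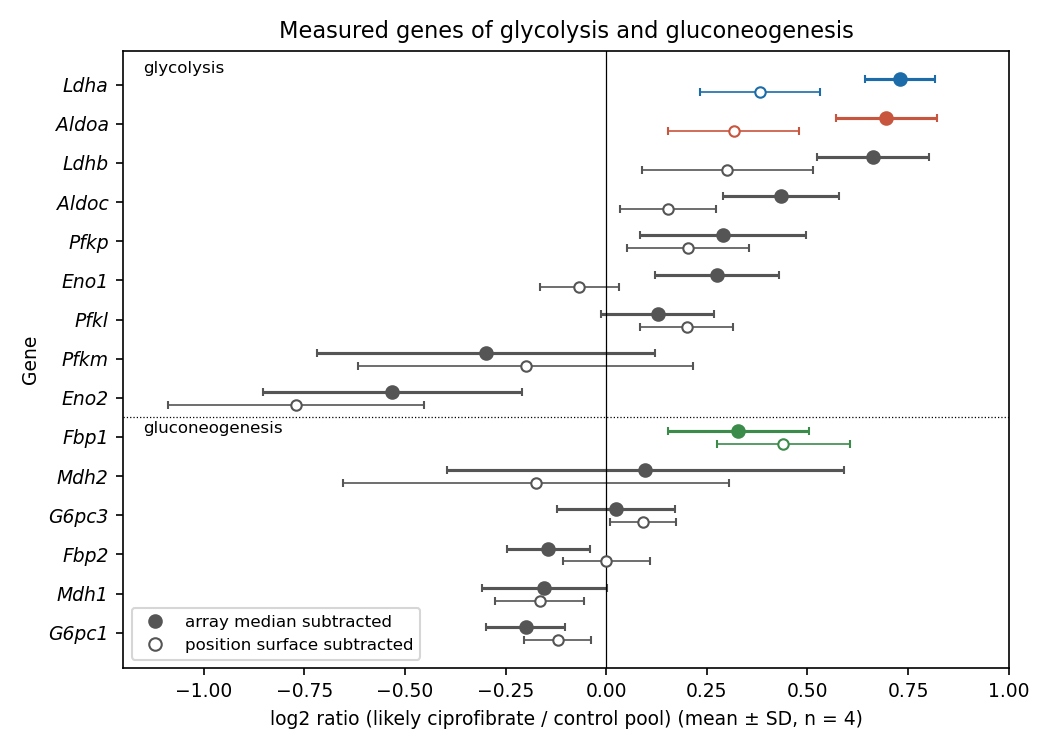
Mean log2 ratio ± SD over the 4 arrays (horizontal axis) for the measured genes of glycolysis and gluconeogenesis, after the array median (filled) or the position surface (open) was subtracted. Ldha, Aldoa and Ldhb lie highest among the filled points, and Fbp1 above the other gluconeogenic genes in both.

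Beyond these steps, 38 genes of the other carbohydrate lists were tested, of which 7 were called higher and 3 lower, against 13.6% and 15.3% of all rows. Of the 7, 5 had their spots in the left blocks. These blocks held all spots of 94.3% of all rows called higher, against 49.9% of all rows tested and 27.4% of rows called lower. With the surface subtracted 1 of the 7 kept its call, Me1, which is also a panel gene used to read the sign. Of 3 enzymes of fructose and polyol metabolism 2 were called higher: Khk, the ketohexokinase that starts fructose use in liver, was at 0.55 ± 0.11 (SD, n = 4) and Sord, sorbitol dehydrogenase, at 0.47 ± 0.16. Of 6 transport genes 2 were called higher, Slc16a1, a lactate and pyruvate carrier, at 0.40 ± 0.14 and Bsg, its chaperone basigin, at 0.47 ± 0.27. Gcgr, the glucagon receptor, was at 0.68 ± 0.19 and Cebpb, a liver transcription factor, at 0.43 ± 0.29, the 2 called among 5 control factors. With the surface subtracted these were at 0.22 for Khk, 0.10 for Sord, 0.27 for Slc16a1, 0.10 for Bsg, 0.30 for Gcgr and 0.05 for Cebpb, with no call. Leaving out replicate 1, 3 or 4 also ended the calls of Slc16a1, Bsg and Cebpb, leaving out replicate 3 those of Khk and Sord, and leaving out replicate 4 that of Sord. Subtracting block medians ended those of Sord (0.25), Bsg (0.25) and Cebpb (0.21), and fitting every spot as a row those of Bsg and Cebpb.

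Of 12 citric acid cycle and malic enzyme genes 1 was called higher and 2 lower, against 13.6% and 15.3% of all rows. Me1, the cytosolic malic enzyme, was at 0.43 ± 0.08 (SD, n = 4) and, from the right blocks, kept its call with the surface subtracted at 0.39 ± 0.11 (limma adjusted p = 0.0257). As a panel gene used to read the sign, Me1 is no evidence of a treatment effect. Sdha, a subunit of succinate dehydrogenase, was at -0.40 ± 0.13 and Me3, a mitochondrial malic enzyme, at -0.60 ± 0.46, of which Sdha alone kept its call, while Aco1, an aconitase, gained one as lower (-0.51 ± 0.17, limma adjusted p = 0.0182), as did Nr3c1, the glucocorticoid receptor, among the control factors (-0.32, limma adjusted p = 0.0331); both were picked for naming after their values were seen. Me3 also lost its call with block medians subtracted (-0.48) and with the repeated value kept (-0.50). The calls of Me1, Sdha and Me3 each ended without replicate 1, 3 or 4. Tigar, a fructose-2,6-bisphosphatase, was the 1 called, as lower, of 3 genes of fructose 2,6-bisphosphate and hexokinase control. From 1 spot, it was at -0.01, -0.85, -0.62 and -1.54 on replicates 1 to 4 (-0.75 ± 0.63). Its call ended with the surface (-0.52) or block medians (-0.63) subtracted, with the repeated value kept (-0.65) and without replicate 2 (-0.72), 3 (-0.80) or 4 (-0.49).

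The counts of the next lists stand against 13.6% of all rows called higher and 15.3% lower. None of 6 glycogen genes was called, with Gyg1, the primer of glycogen synthesis, at 0.29 ± 0.16 (SD, n = 4) and Pygm, the muscle phosphorylase, at 0.28 ± 0.21. Gyg1 was called higher with quantile normalization, array weights or the repeated value kept (limma adjusted p = 0.0391, 0.0405 and 0.0302), and Pygm with the repeated value kept (limma adjusted p = 0.0494). Neither of 2 genes of pyruvate entry was called. Pdk2, a kinase that switches off pyruvate dehydrogenase, was at -0.31 ± 0.32 and Pdhx, a component of that complex, at 0.18 ± 0.15. Pdk2 was called lower with the surface subtracted, at -0.70 ± 0.20 (limma adjusted p = 0.00987), and also with block medians subtracted (-0.53). Tkt was the 1 tested gene of the pentose phosphate pathway, at 0.08 ± 0.53, and it was called higher without replicate 2 (0.34, limma adjusted p = 0.0293) and with array weights (0.31, limma adjusted p = 0.0388).

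Since aldolase A and lactate dehydrogenase A are also abundant outside hepatocytes, markers of other cells are given beside them. Their counts stand against 13.6% of all rows called higher and 15.3% lower, or 2.89% and 11.5% in surface-subtracted values. The arrays give ratios and no level, so the labelled tissue could not be checked against marker levels, and in bulk RNA fewer cells of a type and less RNA per cell cannot be told apart. Of 3 red blood cell markers 2 were called lower and none higher, with Hbb, a globin, lowest at -0.88 ± 0.24 (SD, n = 4) and Alas2 highest at 0.11 ± 0.22; the list averaged between -0.62 and -0.36 on single arrays. Both lower calls held with the surface subtracted, for Hbb at -0.82 (limma adjusted p = 0.0110) and Epb42 at -0.60 (limma adjusted p = 0.0177). Of 6 muscle markers 3 were called higher and none lower, with Actc1 highest at 0.64 ± 0.20 and Tpm2 lowest at -0.40 ± 0.42 and list averages between 0.18 and 0.37. None of the 3 kept the call with the surface subtracted. Of 10 hepatocyte markers 2 were called lower and none higher, with Tf lowest at -0.69 ± 0.20 and Rbp4 highest at 0.58 ± 0.55 and list averages of -0.07, -0.88, -0.20 and -0.12 on replicates 1 to 4. With the surface subtracted Tf stayed called (-0.66, limma adjusted p = 0.0107) and Fgb lost its call (-0.38, limma adjusted p = 0.0869). Replicate 2 stood apart in this list, whose mean over the arrays was -0.32 with it and, in an alternative chosen after seeing the data, -0.13 without it. Replicate 2 is also the array on which all 3 members were highest in surface-subtracted values, and the array whose rows spread widest. The scaled median absolute deviation of the array-centred rows was 0.55 on it, against 0.26, 0.39 and 0.47 on replicates 1, 3 and 4. By rank in surface-subtracted values, Aldoa stood above 95.1% of rows on replicate 2 and 96.0% on replicate 1. Fbp1 stood above 99.0% on replicate 2 and 99.3% on replicate 4, while Ldha ranked highest on replicate 2 (97.5%). A link between these was not tested.

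Of 7 leukocyte markers 3 were called higher and 2 lower, against 13.6% and 15.3% of all rows. The list ranged from C1qb at -1.23 ± 0.53 (SD, n = 4) to Cma1 at 0.69 ± 0.11, with list averages between -0.05 and 0.09. Of 11 markers of stellate cells and fibroblasts 3 were higher and 1 lower, from Acta2 at -0.61 ± 0.27 to Des at 0.62 ± 0.18, with averages between 0.06 and 0.16. In surface-subtracted values 1 leukocyte marker was called higher and 2 lower, and 0 of the stellate cell and fibroblast markers higher and 2 lower, Lum being the one that gained a call (-0.28). Over all rows 2.89% were then called higher and 11.5% lower. The 1 bile duct marker tested, Spp1, was called higher at 0.43 ± 0.11, a call that ended with the surface subtracted (0.16, limma adjusted p = 0.173). Of 2 endothelial markers Cdh5 was at -0.85 ± 0.85 with no call and Kdr was called higher at 0.40 ± 0.21, but not with the surface subtracted (0.14, limma adjusted p = 0.274). The part of these cell types in the ratios of Ldha, Aldoa and Fbp1 was not tested.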

How the data were processed

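The table deposited by the authors holds a value for each spot and array, read here as the log10 ratio: as a linear ratio in thousandths it was whole within 0.02 for all spots of 2 arrays and 99.99% (rounded) on the others, against at most 3.07% in base 2. Its array medians were -0.02, -0.04, -0.03 and -0.05 (log10). Not given in the sources used here were scanner, background correction, scaling, centring and direction. The most repeated value on each array (1171 to 1189 spots) was set to missing.

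Values were converted to log2. Symbols came from the 2008 platform annotation (5169 probes with 1 symbol, 83 with several, 2436 unlisted). For 5140 probes the symbol was then taken by Entrez number from a GRCr8 table, whether or not it differed. Spots of 1 gene were averaged, and other clones and unlisted spots stayed rows. The 4641 rows measured on each of the 4 arrays were tested against 0 in R 4.3.3 with limma 3.58.1, two-sided, Benjamini-Hochberg, threshold 0.05. The fit was tested on simulated data. The surface was a robust loess (span 0.05) over inferred positions. The members and gene lists were chosen with earlier results of these data known. Named were every measured gene of glycolysis and gluconeogenesis, the 2 called genes of smallest p per sign in other lists (or the 2 of smallest p), called panel genes, the highest and lowest marker of each list and the 5 genes closest to each member. Clone sequences were not checked, so cross-hybridisation between related genes was not tested.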

Additional observations from a re-analysis of the deposited data

Results flagged for a closer look

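In 36 genes checked, the members included, 1 array lay far from the other 3 (by Dixon's gap test at the 95% level) in 6, and chance alone marks about 5% of groups. Pfkl was at 0.34 on replicate 2, against 0.04 to 0.08 on the others. Pdk2 was at -0.78 on replicate 2, against -0.19 to -0.11. Bsg was at 0.0734 on replicate 2, against 0.54 to 0.64, and Acsl1 at 0.0837 on replicate 2, against 0.48 to 0.55. Sord was at 0.23 on replicate 1, against 0.52 to 0.57, and Crot at 0.48 on replicate 1, against 0.71 to 0.74. None of Ldha, Aldoa and Fbp1 was among the 6.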

How the results depend on the processing

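Ldha, Aldoa and Fbp1 kept a positive mean under all 15 alternatives. Their means with each array left out ranged from 0.69 to 0.77 for Ldha, 0.65 to 0.73 for Aldoa and 0.25 to 0.38 for Fbp1. Ldha moved to 0.38 with the surface subtracted, 0.31 with replicate 2 also left out, 0.52 with block medians subtracted and 0.83 with the repeated value kept, and Aldoa to 0.32, 0.24 and 0.48 under the first 3 of these. Fbp1 moved to 0.51 with block medians subtracted. Rows called higher, 633 as planned, numbered 134 with the surface subtracted, 376 with block medians, 1145 with the repeated value kept, 1129 with array weights and 100 to 862 with an array left out. Rows called lower, 709 as planned, numbered 1290 with the repeated value kept, 1191 with array weights and 320 to 886 with an array left out. Of the glycolysis and gluconeogenesis genes besides the members, 0 were called higher with the surface subtracted, with or without replicate 2, 4 with the repeated value kept and 1 to 3 with an array left out; called lower were 2 with the repeated value kept, 2 with array weights and 0 to 1 with an array left out. Over all carbohydrate lists, the members left out, higher calls were 9 as planned and numbered 1 with the surface subtracted, 4 with replicate 2 also left out, 16 with the repeated value kept, 16 with array weights and 2 to 14 with an array left out, and lower calls were 4 as planned, 7 with array weights and 0 to 3 with an array left out. The 1 higher call left with the surface subtracted was that of Me1, also a panel gene. Panel genes with a negative mean numbered 3 with array weights and 5 to 7 with an array left out.

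Signs turned for genes that were not called. With the surface subtracted these were Eno1 (-0.067), Fbp2 (0.00061), Mdh2 (-0.17), Pygm (-0.0034) and Tkt (-0.29). With replicate 2 also left out they were Pfkm (0.0021), Eno1 (-0.11), Fbp2 (0.0385), Gyg1 (-0.0143), Pygm (-0.0877) and Tkt (-0.086). With block medians they were Mdh2 (-0.0206) and Tkt (-0.13). With an array left out G6pc3 ranged from -0.0191 to 0.0826, negative without replicate 1 or 3, Mdh2 from -0.0458 to 0.33, negative without replicate 4, and Tkt from -0.0402 to 0.34, negative without replicate 3 or 4. Fits that leave out an array rest on fewer values. The causes of the turned signs and of the changed calls were not tested. No paired analysis was possible because there is 1 group of arrays and the pool is common to all, with no numbered control samples to pair. Signal over background could not be judged, as the table holds no intensities.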
